A study of Mus musculus with 12 samples.

Results

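Expression of 10 endothelial marker genes was measured in the adrenal cortex of mice on 3 diets. The genes were chosen by symbol (*Pecam1*, *Cdh5*, *Kdr*, *Flt1*, *Tek*, *Tie1*, *Plvap*, *Emcn*, *Vwf*, and *Eng*), and all 10 matched 1 Ensembl gene each among the 49585 genes counted. The rule used no measured value, although earlier results of these data were known when the genes were chosen. RNA sequencing (RNA-seq) covered 12 male mice, 4 per group and 1 library per mouse, which were 6 weeks old at the start and were fed for 20 weeks. The first group received a low-fat diet with 10% of its energy as fat (LFD, called normal diet in the labels), the second a high-fat diet with 60% (HFD), and the third the same HFD supplemented with icosapent ethyl, an ethyl ester of eicosapentaenoic acid, during the last 10 weeks. The labels give the genotype of all 12 mice as *Fads2*-/-, whereas the study's methods describe wild-type C57BL/6J mice. *Fads2* had counts in each of the 12 mice, and its level, in CPM (counts scaled to a common library size), lay between 452 and 2181. The cortex was separated from the medulla by dissection, and no cells were sorted, so that endothelial RNA was measured as a part of the whole tissue.

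The adrenal cortex is among the most densely vascularized tissues. Its steroidogenic cells lie in cords along thin-walled capillaries with a fenestrated endothelium, through which cholesterol-rich lipoproteins and adrenocorticotropic hormone arrive and corticosteroids leave. Cortical cells secrete vascular endothelial growth factor A (VEGFA), which acts on the receptors KDR and FLT1 of the endothelium. The angiopoietins act on the receptor TEK (TIE2), to which TIE1 is related. PECAM1 (CD31) and VE-cadherin, encoded by *Cdh5*, hold endothelial cells together at their junctions, PLVAP forms the diaphragms of fenestrae, endomucin (*Emcn*) is a surface sialomucin of capillaries and veins, endoglin (*Eng*) is a coreceptor for ligands of the transforming growth factor β family, and von Willebrand factor (*Vwf*) is the secreted glycoprotein that binds platelets.

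Each mouse had between 34785979 and 67295963 counts assigned to genes. Library sizes were scaled by the trimmed mean of M values (TMM), and CPM below are on that scale. All 10 endothelial genes passed the filter on low counts in every comparison, with 169 counts or more in every mouse (*Vwf*) and 2412 or more for the other 9 genes. Defining genes of other cell types were also present. The summed CPM of 10 adrenocortical genes ranged from 44741 to 75172 in LFD, from 58940.4 to 105429 in HFD, and from 61652 to 97530.0 in icosapent ethyl–treated mice. For 12 genes of the chromaffin cells of the medulla, the ranges were 6431 to 22656, 3102 to 10019.6, and 5557 to 11009 CPM, and none of these genes was at 0. The 10 endothelial genes summed to 1311 to 1988 CPM in LFD, 1395 to 1830.3 CPM in HFD, and 1105 to 1640.4 CPM in icosapent ethyl–treated mice, so that all 3 groups overlapped. In whole tissue, fewer endothelial cells and less endothelial RNA per cell cannot be told apart.

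The 10 genes differed widely in level. To compare levels between genes, CPM were divided by the exon length in kilobases. This is the length of all annotated exons of a gene merged, and not that of 1 transcript. The order between genes depends on it, and in the same way in every mouse. Before the division *Flt1* was above *Cdh5* (means of 193 and 85.2 CPM), and after it below. *Plvap* was the highest, at 153 ± 24.3 CPM per kilobase (mean ± SD, n = 12 mice), followed by *Eng* at 40.6 ± 5.95 CPM per kilobase. Each of these 2 genes was above the next in all 12 mice. The 4 genes that came next could not be ordered. The mean level was 28.3 ± 6.25 CPM per kilobase for *Kdr*, 28.0 ± 4.94 for *Tie1*, 27.5 ± 3.96 for *Emcn*, and 26.7 ± 4.74 for *Tek*. *Kdr* was above *Tie1* in 6 of 12 mice, *Tie1* above *Emcn* in 6, and *Emcn* above *Tek* in 7. *Pecam1* (24.2 ± 3.27 CPM per kilobase) was below *Tek* in 10 of 12 mice. *Cdh5* (20.3 ± 2.99 CPM per kilobase) and *Flt1* (14.3 ± 3.45 CPM per kilobase) came next, each below its upper neighbor in all 12 mice. *Vwf* was the lowest in every mouse, at 0.597 ± 0.226 CPM per kilobase.

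**Figure D1:**
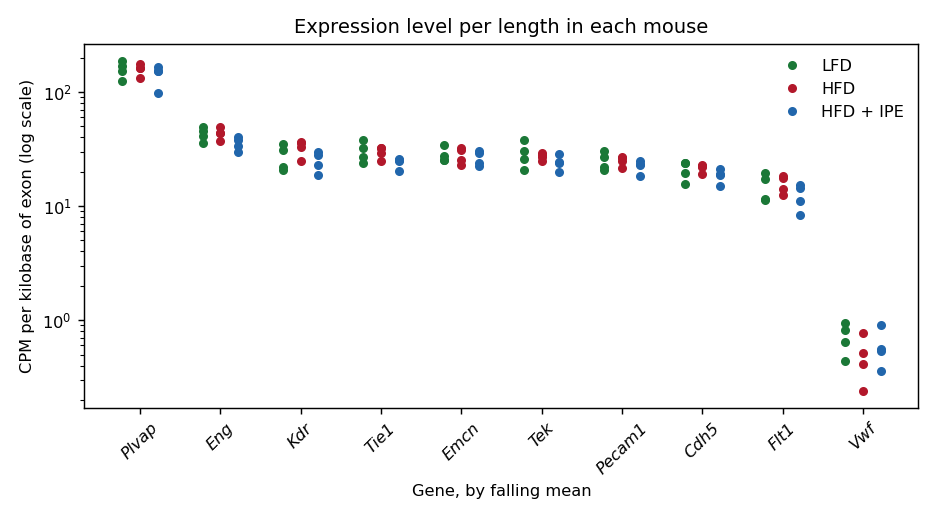
CPM per kilobase of exon (log scale) of the 10 endothelial genes in each of 12 mice, colored by group (IPE, icosapent ethyl) and ordered by mean. *Plvap* lies above and *Vwf* below all the others in every mouse, and the 3 groups overlap for each gene.

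None of the 10 endothelial genes passed the threshold in HFD versus LFD mice (adjusted p below 0.05, edgeR quasi-likelihood F test on all 15909 genes tested), against 1.45% of all genes (0.974% higher and 0.471% lower). Nor did any of them at an unadjusted p below 0.05, which 24.8% of all genes passed (12.4% higher and 12.5% lower), or in DESeq2's Wald test, at either p (12.9% of all genes were called and 27.3% had an unadjusted p below 0.05 in that test). The HFD and LFD mice overlapped in all 10 genes, whereas they did not overlap in 13.5% of all genes tested. Of the 10 genes, 6 had a log2 fold change below 0, as had 51.8% of all genes. The median of the 10 genes was -0.0056, beside -0.015 over all genes. For the 9 genes other than *Vwf*, log2 fold changes lay between -0.078 (*Tek*) and 0.25 (*Kdr*), and their 95% confidence intervals together spanned -0.44 to 0.67. *Vwf* had a log2 fold change of -0.57 with an interval of -1.40 to 0.27. For the genes other than *Kdr* and *Vwf*, the direction of these small differences depended on single mice. For *Cdh5*, *Flt1*, *Plvap*, and *Eng* it also depended on the scaling. With 1 mouse at a time left out, *Kdr* stayed above 0 (0.15 to 0.39) and *Vwf* below 0 (-0.89 to -0.34). Both changed sign with the mean of the chromaffin genes as a covariate (-0.072 and 0.15). The median was between -0.065 (without LFD replicate 6) and 0.082 (without LFD replicate 7) when 1 mouse at a time was left out. It was -0.18 without LFD replicates 2 and 6, the LFD mice with the most chromaffin RNA. With the mean of the chromaffin genes as a covariate it was -0.19, and with that of the adipocyte genes 0.18. At an unadjusted p below 0.05, the edgeR test gave 3 of the 10 genes with the adipocyte covariate, 1 without HFD replicate 1, 1 without LFD replicates 2 and 6, and 0 with the chromaffin covariate. Over all genes tested, 4755 of 15909, 4477 of 16096, 2055 of 16276, and 1446 of 15909 passed at that p, in the same order of fits.

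Icosapent ethyl–treated mice had lower mean CPM than HFD mice in 9 of the 10 genes, with *Vwf* as the exception, whereas 48.9% of the 15913 genes tested had a log2 fold change below 0. These 9 genes varied together across mice (median Pearson's r of 0.86 over their pairs, group means subtracted). They therefore do not count as 9 separate observations, and the share over all genes is no test of them. The median log2 fold change of the 10 genes was -0.20, beside 0.0040 over all genes, whose interquartile range was -0.095 to 0.12. No endothelial gene passed the threshold, against 0% of all genes (adjusted p = 0.9997 for each of the 10 genes, edgeR). *Tie1* (unadjusted p = 0.0317, edgeR) and *Eng* (unadjusted p = 0.0374, edgeR) were lower at an unadjusted p below 0.05. At that p, 0.716% of all genes were lower and 0.672% higher. DESeq2's Wald test gave *Tie1* and *Eng* as well at that unadjusted p and none past the threshold, against 1.99% and 0.0377% of all genes in that test. The 2 groups overlapped in all 10 genes, and 1.14% of all genes did not overlap. Single mice mattered to these values. The median log2 fold change was -0.12 without icosapent ethyl replicate 2 and between -0.27 and -0.17 without any other mouse. The number of the 10 genes at an unadjusted p below 0.05 went both ways in the edgeR test, to 5 without icosapent ethyl replicate 3 and 4 without HFD replicate 1, and to 0 without icosapent ethyl replicate 2, without HFD replicate 2, 3, or 4, or with the mean of the chromaffin genes as a covariate. Over all genes tested, 192 of 16058 passed at that p without icosapent ethyl replicate 3 and 877 of 16085 without HFD replicate 1. Without icosapent ethyl replicate 2, 134 of 16108 passed. Without HFD replicates 2, 3, and 4 these were 177 of 16086, 173 of 16167, and 138 of 16126. With the chromaffin covariate, 107 of 15913 passed.

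Compared with LFD mice, all 10 genes had a negative log2 fold change in icosapent ethyl–treated mice, between -0.32 (*Tie1*) and -0.088 (*Emcn*), with a median of -0.21 beside -0.0037 over all genes. Among the 15935 genes tested, 50.6% had a negative value. All of the 10 genes but *Vwf* varied together across mice, so that their shared sign is not a set of separate observations. None of the 10 genes had an adjusted p below 0.05 (0% of all genes did) or an unadjusted p below 0.05 (14.0% did, 7.29% higher and 6.67% lower) in the edgeR test, nor in DESeq2's test, which called 2.99% of all genes and gave 16.4% of them an unadjusted p below 0.05. The groups overlapped in all 10 genes and did not in 7.74% of all genes. The lowest unadjusted p were 0.0587 for *Eng* and 0.0592 for *Tie1* in the model fitted with edgeR. This comparison shares its mice with the others, the LFD mice with the first and the icosapent ethyl–treated mice with the second. The median was -0.11 without icosapent ethyl replicate 2, -0.083 without LFD replicate 7, and -0.40 without LFD replicates 2 and 6. With the mean of the adipocyte genes as a covariate it was -0.0027, and 4 of the 10 genes were then above 0, whereas with that of the chromaffin genes it was -0.31. At an unadjusted p below 0.05, the edgeR test gave 6 of the 10 genes without LFD replicates 2 and 6, 4 with the chromaffin covariate, and 3 without LFD replicate 6. Over all genes tested, 1314 of 16309, 1909 of 15935, and 1466 of 16126 passed at that p, in the same order of fits. The first of these fits kept only LFD replicates 5 and 7. Their summed CPM of the 10 genes, 1767 and 1988, were the highest of the LFD mice.

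**Figure D2:**
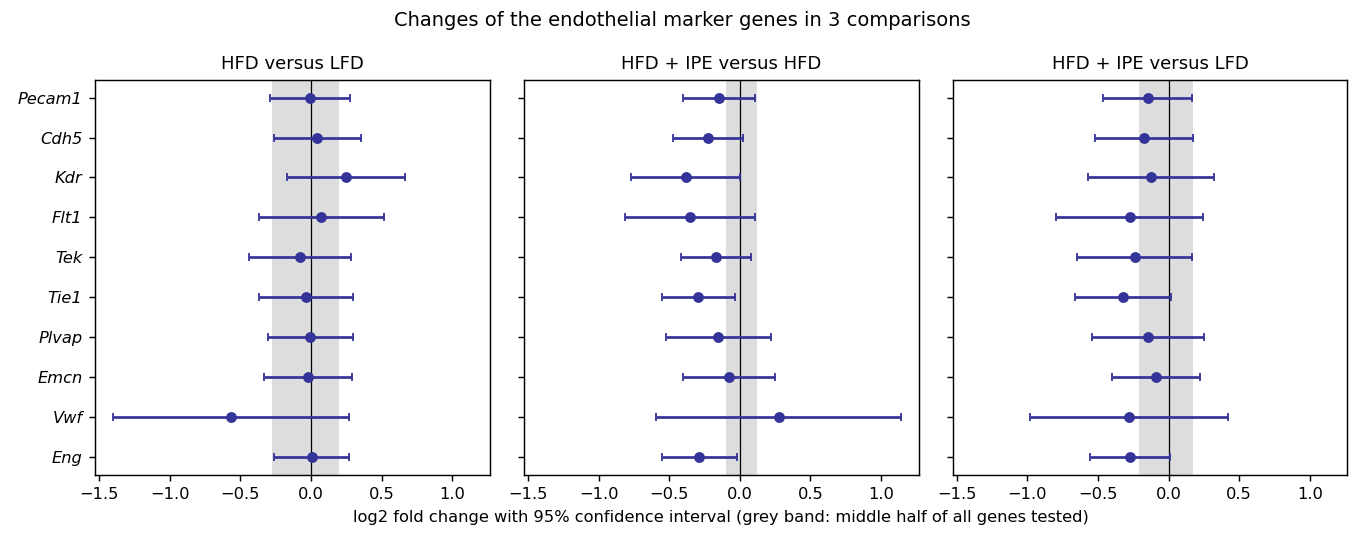
Log2 fold change of each endothelial gene (points) with its 95% confidence interval (bars) in the 3 comparisons, with the interquartile range of all genes tested as a grey band. The intervals of *Tie1* and *Eng* in icosapent ethyl–treated (HFD + IPE) versus HFD mice lie below 0, and every other interval includes 0.

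The junction gene *Pecam1* (ENSMUSG00000020717, chromosome 11 from 106654217 to 106750628, minus strand of GRCm38) was at 129.6, 168, 136, and 189 CPM in LFD replicates 2, 5, 6, and 7, 134, 168, 166, and 154 CPM in HFD replicates 1 to 4, and 146, 115, 156, and 144 CPM in icosapent ethyl replicates 1 to 4. The groups overlapped, with LFD replicate 7 the highest and icosapent ethyl replicate 2 the lowest of the 12 mice. The group means were 156 ± 27.6 CPM in LFD, 156 ± 15.6 CPM in HFD, and 140.4 ± 17.5 CPM in icosapent ethyl–treated mice (SD, n = 4 each). *Pecam1* had a log2 fold change of -0.0069 (SE 0.13) in HFD versus LFD and -0.15 (SE 0.11) in icosapent ethyl–treated versus HFD mice. The VE-cadherin gene *Cdh5* (ENSMUSG00000031871, chromosome 8 from 104101625 to 104144511, plus strand) was at 81.4, 101, 65.9, and 101 CPM in LFD replicates 2, 5, 6, and 7, 80.0, 96.1, 93.1, and 93.6 CPM in HFD replicates 1 to 4, and 80.2, 63.5, 88.2, and 78.0 CPM in icosapent ethyl replicates 1 to 4. Its lowest values, in icosapent ethyl replicate 2 and LFD replicate 6, were from different groups, and the 2 highest were both from LFD mice. For *Cdh5* the log2 fold change was 0.045 (95% confidence interval -0.26 to 0.35) in HFD versus LFD and -0.23 (-0.48 to 0.023) in icosapent ethyl–treated versus HFD mice. The first of these changed its sign when library totals were not scaled (-0.057).

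Of the VEGF receptors, *Kdr* (ENSMUSG00000062960, chromosome 5 from 75932827 to 75978458, minus strand) encodes the main signaling receptor and *Flt1* (ENSMUSG00000029648, chromosome 5 from 147561604 to 147726011, minus strand) a receptor that binds VEGFA tightly and limits its action on KDR. *Kdr* was at 187, 279, 201, and 318 CPM in LFD replicates 2, 5, 6, and 7, 223, 298, 323, and 332 CPM in HFD replicates 1 to 4, and 208, 171, 269, and 254 CPM in icosapent ethyl replicates 1 to 4. HFD replicates 3 and 4 exceeded the highest LFD mouse, whereas LFD replicates 5 and 7 exceeded HFD replicate 1, so that the groups overlapped. The means were 246 ± 62.6 CPM in LFD, 294 ± 49.7 CPM in HFD, and 225 ± 44.5 CPM in icosapent ethyl–treated mice (SD, n = 4 each). The log2 fold change was 0.25 (SE 0.18, adjusted p = 0.43, edgeR) in HFD versus LFD and -0.38 (SE 0.17, unadjusted p = 0.0523, edgeR) in icosapent ethyl–treated versus HFD mice. In HFD versus LFD mice, *Kdr* was the only one of the 10 genes to pass the threshold under any alternative, and did so when the mean of the adipocyte genes was added to the model (0.55 on the log2 scale, edgeR adjusted p = 0.0415). In that fit, 2054 of all 15909 genes tested passed. Over all alternatives the adjusted p of *Kdr* went up to 0.975, and its value was 0.15 without LFD replicate 2, 0.39 without LFD replicate 7, -0.072 with the mean of the chromaffin genes as a covariate and -0.017 without LFD replicates 2 and 6. The summed CPM of the adipocyte genes did not overlap between LFD (286 to 319) and HFD mice (373 to 439). *Flt1* was at 155, 235, 154, and 261 CPM in LFD replicates 2, 5, 6, and 7, 168, 193, 250.3, and 239 CPM in HFD replicates 1 to 4, and 151, 113, 206, and 194 CPM in icosapent ethyl replicates 1 to 4. It varied the most among the 9 genes other than *Vwf*, with a highest value 2.32 times the lowest. Its log2 fold change was 0.075 (SE 0.20) in HFD versus LFD mice, turned to -0.033 without scaling of the library totals, and was -0.35 (SE 0.20) in icosapent ethyl–treated versus HFD mice.

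Sequences upstream of receptor and coreceptor genes are shown as examples, and whether they relate to the RNA levels was not tested. RefSeq promoters (GRCm38.p6) were found for 6 of the 10 genes, *Kdr*, *Flt1*, *Tek*, *Tie1*, *Emcn*, and *Eng*. The 250 bases before the annotated start were searched on both strands for GGAA, the core of the sites of ETS factors, which regulate many endothelial genes. The sequences of 4 of them follow, 5′ to 3′ on the strand of the gene (minus for *Kdr* and *Flt1*, plus for *Tek* and *Eng*), with GGAA and its complement TTCC in capitals.
Kdr (chr5:75978456-75978705): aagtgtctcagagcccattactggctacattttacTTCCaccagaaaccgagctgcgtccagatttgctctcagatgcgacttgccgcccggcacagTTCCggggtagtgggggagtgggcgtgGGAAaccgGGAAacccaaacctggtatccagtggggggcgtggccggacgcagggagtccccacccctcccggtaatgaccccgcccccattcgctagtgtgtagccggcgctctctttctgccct
Flt1 (chr5:147726012-147726261): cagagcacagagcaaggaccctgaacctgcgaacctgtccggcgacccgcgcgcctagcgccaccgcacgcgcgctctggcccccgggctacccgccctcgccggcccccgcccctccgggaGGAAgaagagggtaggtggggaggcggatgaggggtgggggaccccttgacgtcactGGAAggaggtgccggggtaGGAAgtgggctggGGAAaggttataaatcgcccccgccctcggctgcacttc
Tek (chr4:94739039-94739288): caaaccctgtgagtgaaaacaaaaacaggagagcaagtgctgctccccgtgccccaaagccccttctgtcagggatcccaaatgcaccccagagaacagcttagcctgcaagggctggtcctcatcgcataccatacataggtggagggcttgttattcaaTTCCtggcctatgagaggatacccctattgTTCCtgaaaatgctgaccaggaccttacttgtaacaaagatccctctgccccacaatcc
Eng (chr2:32646345-32646594): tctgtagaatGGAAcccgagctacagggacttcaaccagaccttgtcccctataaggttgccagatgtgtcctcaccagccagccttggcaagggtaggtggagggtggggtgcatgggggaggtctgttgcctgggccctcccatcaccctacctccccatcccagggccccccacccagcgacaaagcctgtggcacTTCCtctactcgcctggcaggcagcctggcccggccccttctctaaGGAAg
The core was present 4 times before *Kdr*, 4 before *Flt1*, 2 before *Tek*, 3 before *Eng*, 7 before *Tie1*, and 4 before *Emcn*. The starts are those of RefSeq. The window of *Tie1*, from 118489850 to 118490099, lies mostly within the gene as GENCODE places it (up to 118490061, minus strand). The core was found in 93.4% of all 32851 promoters, so that its presence does not set these genes apart. The longer site CAGGAAG, which contains the core, was found only before *Emcn* (in 10.8% of all promoters). CCGGAAG (6.91% of all promoters) and the GATA site AGATAA (9.99%) were in none of the 6 windows.

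The angiopoietin receptor gene *Tek* (ENSMUSG00000006386, chromosome 4 from 94739289 to 94874976, plus strand) was at 121, 144, 97.0, and 178 CPM in LFD replicates 2, 5, 6, and 7, 117, 126, 138, and 133 CPM in HFD replicates 1 to 4, and 113, 94.4, 134, and 115 CPM in icosapent ethyl replicates 1 to 4. The HFD mice lay within the range of the LFD mice, which was wider (SD of 34.4 CPM, compared with 9.18 CPM in HFD). Of the icosapent ethyl–treated mice, 3 of 4 were below every HFD mouse, with a log2 fold change of -0.17 (SE 0.11, unadjusted p = 0.163, edgeR). *Tie1* (ENSMUSG00000033191, chromosome 4 from 118471191 to 118490061, minus strand), the gene of the related receptor, was at 133, 158, 116, and 187 CPM in LFD replicates 2, 5, 6, and 7, 121, 143, 159, and 159 CPM in HFD replicates 1 to 4, and 125, 99.7, 128, and 122 CPM in icosapent ethyl replicates 1 to 4. All 4 icosapent ethyl–treated mice were below the median of the HFD mice and below that of the LFD mice, but 3 of 4 were above the lowest HFD mouse. The means were 149 ± 31.0 CPM in LFD, 145 ± 17.8 CPM in HFD, and 119 ± 12.9 CPM in icosapent ethyl–treated mice (SD, n = 4 each). The log2 fold change of *Tie1* was -0.29 (95% confidence interval -0.55 to -0.032) against HFD and -0.32 (-0.66 to 0.015) against LFD mice, and -0.036 (-0.37 to 0.30) in HFD versus LFD mice.

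*Plvap* (ENSMUSG00000034845, chromosome 8 from 71497765 to 71511752, minus strand), which encodes the protein of fenestral diaphragms, was at 301, 333, 249, and 375 CPM in LFD replicates 2, 5, 6, and 7, 264, 325, 349.8, and 321 CPM in HFD replicates 1 to 4, and 302, 197, 331, and 305 CPM in icosapent ethyl replicates 1 to 4. Icosapent ethyl replicate 2 was the lowest, and the other 11 mice lay between 249 and 375 CPM. The log2 fold change was -0.0043 (95% confidence interval -0.30 to 0.30) in HFD versus LFD mice, with its sign changing in 3 alternatives that kept all mice and did not adjust for a cell type (0.0037 with DESeq2 and with its size factors, 0.0030 with all 12 mice in 1 fit). It was -0.15 (-0.52 to 0.22) in icosapent ethyl–treated versus HFD mice and -0.011 without icosapent ethyl replicate 2. The endomucin gene *Emcn* (ENSMUSG00000054690, chromosome 3 from 137341067 to 137432185, plus strand) was at 149.8, 136, 136, and 186 CPM in LFD replicates 2, 5, 6, and 7, 123, 138, 166, and 175 CPM in HFD replicates 1 to 4, and 128, 121, 164, and 159 CPM in icosapent ethyl replicates 1 to 4. It had the values closest to 0 against both other groups in icosapent ethyl–treated mice, at -0.074 (SE 0.14) against HFD and -0.088 (SE 0.14) against LFD mice. HFD and LFD mice differed by -0.023 (SE 0.14) on the log2 scale.

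The endoglin gene *Eng* (ENSMUSG00000026814, chromosome 2 from 32646595 to 32682669, plus strand) was at 166, 199.6, 145, and 185 CPM in LFD replicates 2, 5, 6, and 7, 151, 199, 176, and 176 CPM in HFD replicates 1 to 4, and 163, 121, 155, and 137 CPM in icosapent ethyl replicates 1 to 4. All 4 icosapent ethyl–treated mice were below the median of the HFD mice, and 2 of 4 were below every HFD mouse. The means were 174 ± 23.7 CPM in LFD, 176 ± 19.4 CPM in HFD, and 144 ± 18.5 CPM in icosapent ethyl–treated mice (SD, n = 4 each). *Eng* had a log2 fold change of 0.0050 (95% confidence interval -0.26 to 0.27) in HFD versus LFD, -0.29 (-0.55 to -0.021) in icosapent ethyl–treated versus HFD, and -0.27 (-0.56 to 0.012) in icosapent ethyl–treated versus LFD mice. The first of these turned to -0.098 without scaling of the library totals. *Eng* overlaps *Fpgs*, and *Plvap* overlaps *Gtpbp3*, on the opposite strand, and the counting used the strand of the reads.

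*Vwf* (ENSMUSG00000001930, chromosome 6 from 125546774 to 125686679, plus strand) stood apart from the other 9 genes in level and in pattern. It was at 15.3, 13.2, 10.4, and 6.98 CPM in LFD replicates 2, 5, 6, and 7, 12.5, 6.58, 8.34, and 3.82 CPM in HFD replicates 1 to 4, and 14.4, 8.98, 8.69, and 5.76 CPM in icosapent ethyl replicates 1 to 4. Its highest value was 4.01 times its lowest, compared with 1.54 to 2.32 times for the others, and HFD replicate 4 was the lowest. The means were 11.5 ± 3.62 CPM in LFD, 7.81 ± 3.65 CPM in HFD, and 9.47 ± 3.62 CPM in icosapent ethyl–treated mice (SD, n = 4 each). The log2 fold change was -0.57 (SE 0.37, adjusted p = 0.371, edgeR) in HFD versus LFD and 0.27 (SE 0.38, adjusted p = 0.9997, edgeR) in icosapent ethyl–treated versus HFD mice. With the mean of the chromaffin genes as a covariate these values were 0.15 and -0.13. The value in HFD versus LFD mice was -1.11 with the mean of the adipocyte genes as a covariate (edgeR adjusted p = 0.0651), -0.89 without HFD replicate 1, -0.34 without HFD replicate 4, and -0.37 without LFD replicates 2 and 6. Across the 12 mice, after subtraction of the group means, log2 CPM of *Vwf* and the log2 of the summed chromaffin CPM had a Pearson's r of 0.74, and those of the other 9 genes had an r between -0.66 (*Kdr*) and -0.50 (*Plvap*). With the summed adrenocortical CPM, r was -0.72 for *Vwf* and between 0.33 (*Eng*) and 0.83 (*Emcn*) for the others. These values share their libraries and their scaling. Beyond the chromaffin and adipocyte covariates, which moved the value of *Vwf* in HFD versus LFD mice in opposite directions, the part of other cells' RNA in the levels was not tested.

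**Figure D3:**
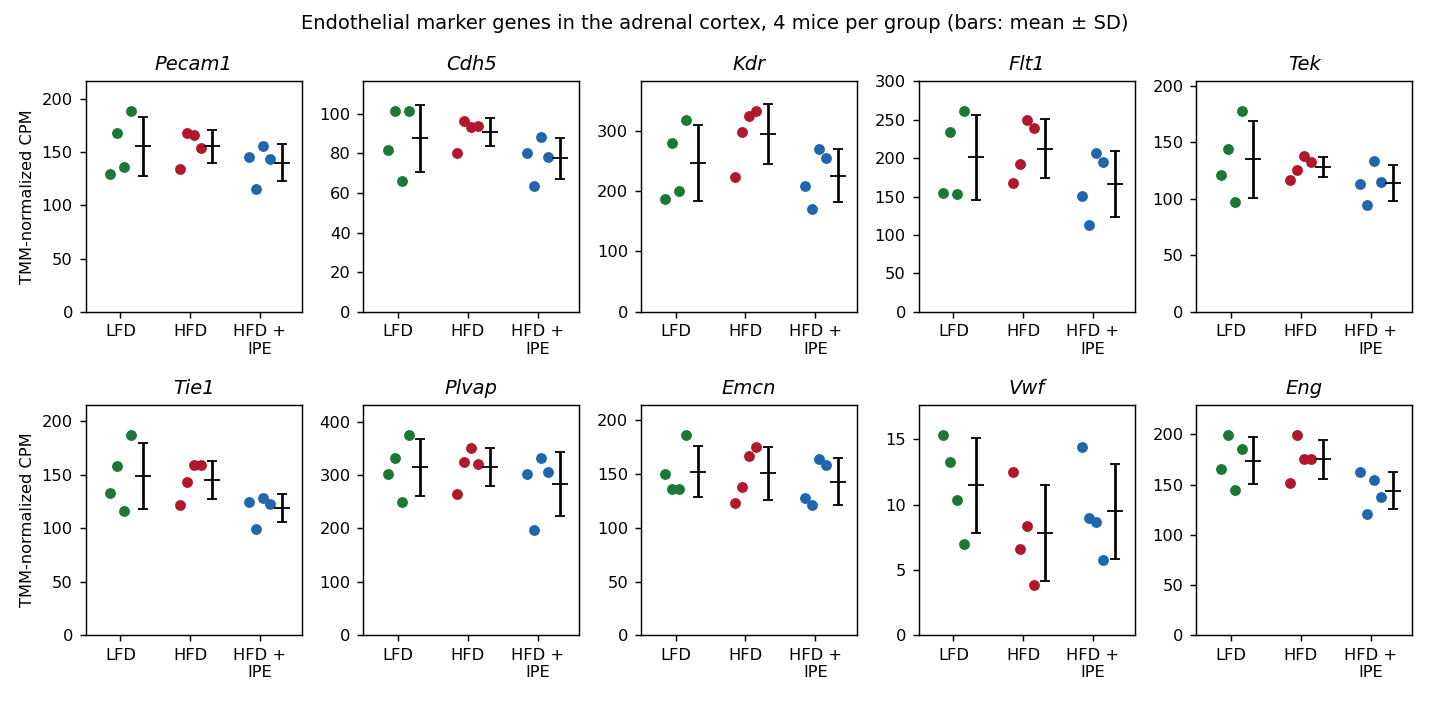
TMM-normalized CPM of the 10 endothelial genes in 4 LFD, 4 HFD, and 4 icosapent ethyl–treated (HFD + IPE) mice, with 1 point per mouse and the group mean ± SD beside the points. The groups overlap in every panel, and the vertical axes start at 0.

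Across mice, 9 of the 10 genes went up and down together. After the group means were subtracted from log2 CPM, the 36 pairs among these 9 genes had a median Pearson's r of 0.86 over the 12 mice, and 35 of the 36 were above 0.5. The highest r was 0.97, for the VEGF receptor genes *Kdr* and *Flt1*, and *Tek* and *Tie1* had an r of 0.94. The lowest was 0.33, for *Emcn* and *Eng*. All pairs share their libraries and scaling. The share of pairs above 0.5 among all genes was not measured, so that the count of 35 has no baseline. Shares over all genes are given below for correlations with *Pecam1* alone. The 9 pairs with *Vwf* had r between -0.70 and -0.053. Icosapent ethyl replicate 2 had the lowest CPM of the 12 mice in 9 genes, all but *Vwf*, and LFD replicate 7 the highest in 6.

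Each gene was also compared singly with *Pecam1* over the 12 mice, with the group means subtracted and an exact two-sided permutation test within groups (smallest possible p 7.23e-05). The same test was run on all 13458 named genes with a mean of at least 1 CPM, and p were adjusted over all of them. No gene passed 0.05 after adjustment (0%). At an unadjusted p below 0.05, 7 of the 9 genes had a positive r, as had 15.2% of all genes, and 26.3% of all genes passed in either direction. *Kdr* had a Pearson's r of 0.93 (exact permutation p = 0.00217, adjusted 0.101) and a Spearman's rho of 0.87 (exact permutation p = 0.00398, adjusted 0.127). The 6 others were *Cdh5*, *Flt1*, *Tek*, *Tie1*, *Plvap*, and *Eng*, with r from 0.81 to 0.90, rho from 0.73 to 0.90, and adjusted exact permutation p from 0.101 to 0.120 for r and from 0.111 to 0.212 for rho. An r at least as high as that of *Eng*, the lowest of the 7, was found for 3.69% of all genes. *Emcn* had an r of 0.62 and a rho of 0.58 (exact permutation p = 0.0549 and 0.0775), and *Vwf* an r of -0.38 and a rho of -0.31 (exact permutation p = 0.242 and 0.346). Without icosapent ethyl replicate 2 and LFD replicate 2, the mice farthest from the median of *Pecam1*, the 7 genes had r from 0.81 to 0.93.

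**Figure D4:**
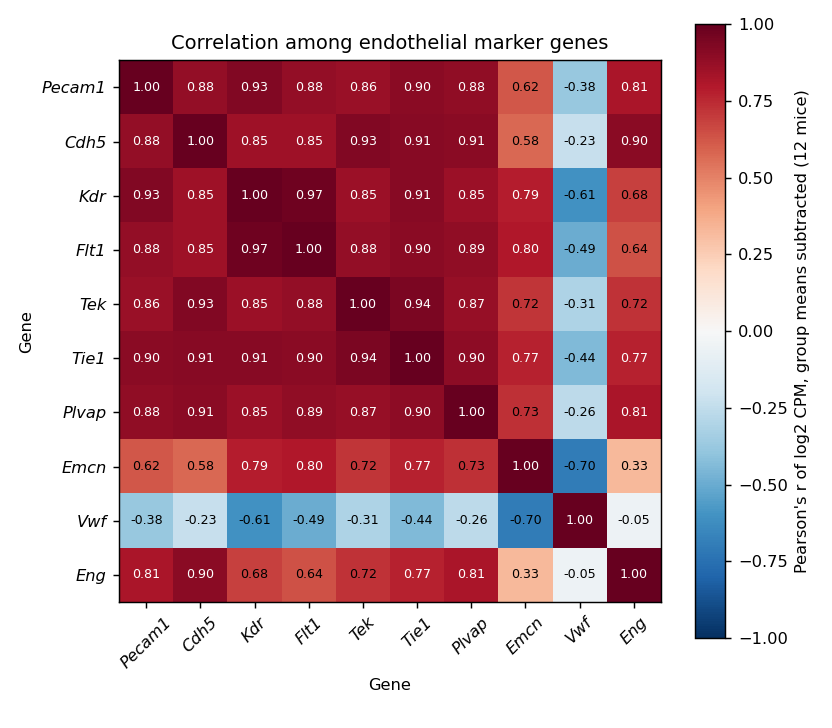
Pearson's r of log2 CPM over 12 mice, with group means subtracted, for each pair of the 10 endothelial genes (color and printed value). The block of high values spans 9 genes, with *Emcn* and *Eng* the least alike, and *Vwf* is negative with each of them.

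**Figure D5:**
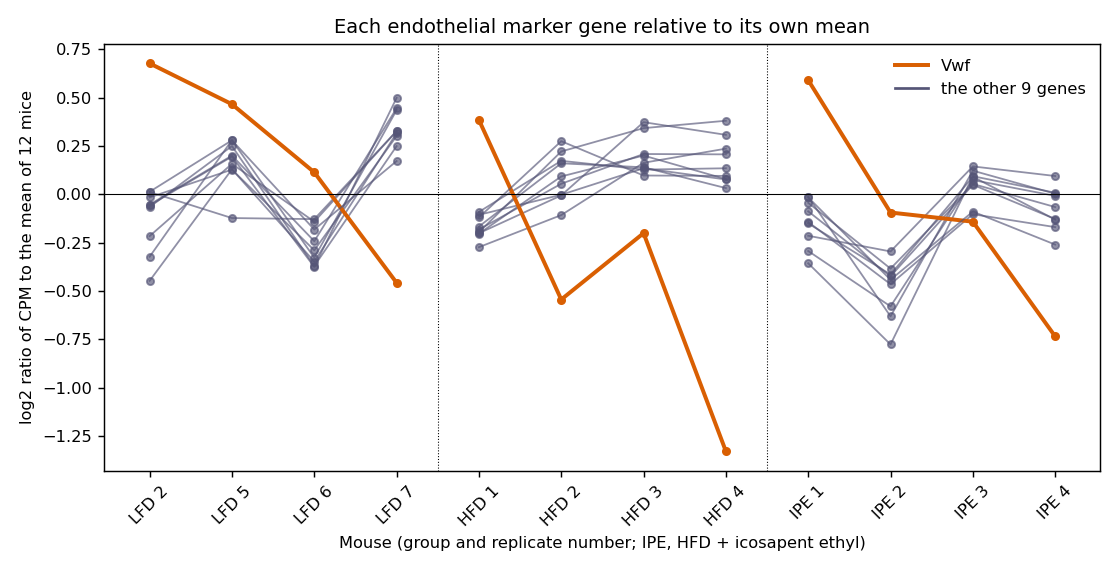
Log2 ratio of the CPM of each endothelial gene to its own mean over the 12 mice, by mouse, with lines that only join the mice of a group for reading. The 9 genes in grey move together and are low in icosapent ethyl replicate 2, and *Vwf* in orange is lowest in HFD replicate 4.

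The genes with the pattern most like that of the 10 markers were sought among the 13449 other named genes with a mean of at least 1 CPM. The measure was Pearson's r, over the 12 mice and with group means subtracted, with the mean of the 10 standardized profiles. The 8 highest were *Qk* (r = 0.974), *Adgrl4* (0.962), *Robo4* (0.962), *Cyyr1* (0.962), *Ushbp1* (0.951), *Slfn5* (0.948), *4931406P16Rik* (0.944), and *Enpep* (0.939). They were selected as the highest of many, share libraries and scaling with the markers, and carry no test. Spearman's rho of these 8 genes was 0.846 to 0.930, and r was 0.903 to 0.970 without the 2 mice farthest from the median of the mean profile. *Adgrl4* and *Robo4* belong to a list of 31 other endothelial genes described below.

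Ratios within a mouse do not depend on the scaling of the library. The CPM ratio of each of the other 9 genes to *Pecam1* was compared between groups by an exact two-sided permutation test (smallest possible p 0.0286 for 4 against 4 mice), with adjustment over 27 tests. None had an adjusted p below 0.05, and the lowest adjusted exact permutation p was 0.514. A single ratio at the smallest possible p could not have passed after this adjustment, so that the test cannot decide on single ratios. The lowest unadjusted exact permutation p was 0.0571, for *Cdh5* and *Eng* in icosapent ethyl–treated versus HFD mice. The ratio of *Kdr* to *Pecam1* was 1.56 ± 0.125 in LFD, 1.88 ± 0.218 in HFD, and 1.60 ± 0.169 in icosapent ethyl–treated mice (SD, 4 mice each), with unadjusted exact permutation p of 0.0857 for HFD versus LFD and 0.114 for icosapent ethyl–treated versus HFD mice. That of *Eng* to *Pecam1* was 1.13 ± 0.133, 1.13 ± 0.0505, and 1.03 ± 0.0699 in the same order. For *Flt1* it was 1.28 ± 0.136, 1.37 ± 0.198, and 1.17 ± 0.192.

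The ligands and partners of these receptors were taken from lists written from general knowledge. Of 18 genes for VEGF and angiopoietin ligands, coreceptors, and modulators, 18 were tested and none passed the threshold in any comparison by edgeR. The median log2 fold change of the list was -0.035 in HFD versus LFD, 0.017 in icosapent ethyl–treated versus HFD, and -0.21 in icosapent ethyl–treated versus LFD mice. *Vegfa*, the ligand of KDR and FLT1, was at 207 ± 105 CPM in LFD, 278 ± 191 CPM in HFD, and 352 ± 215 CPM in icosapent ethyl–treated mice (SD, n = 4 each). On the log2 scale HFD differed from LFD by 0.43 (SE 0.50), and the difference was 0.34 (SE 0.56) in icosapent ethyl–treated versus HFD mice. Its spread within groups was thus larger, relative to the mean, than that of *Kdr* or *Flt1*. *Angpt1*, which activates TEK, was at 4.44 ± 0.877, 3.61 ± 0.217, and 3.66 ± 0.415 CPM in the same order of groups. *Angpt2*, a context-dependent antagonist of TEK, was at 3.83 ± 0.761, 2.84 ± 0.868, and 3.07 ± 0.971 CPM.

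In a list of 13 genes of the signaling around endoglin, 11 were tested and 0 passed the threshold in each comparison by edgeR, with medians of 0.075 in HFD versus LFD and -0.11 in icosapent ethyl–treated versus HFD mice. Of 16 endothelial transcription factor genes, none passed, and the medians were -0.18 and 0.11. Of 31 other endothelial genes, none passed, with 30 tested in HFD versus LFD and 31 in the other comparisons, and the medians were -0.098 and -0.0074. Over the 4 lists, the genes with an unadjusted p below 0.05 in HFD versus LFD mice numbered 2 of 18 (*Vegfc* and *Apln*), 3 of 11 (*Acvrl1*, *Bmpr2*, and *Smad6*), 1 of 16 (*Fli1*), and 6 of 30, against 24.8% of all genes tested. In icosapent ethyl–treated versus HFD mice they numbered 3 of 18 (*Nrp1*, *Dll4*, and *Notch1*, all lower), 0 of 11, 0 of 16, and 2 of 31 (*Podxl* and *Ephb4*, both lower), against 1.39% of all genes. The genes in parentheses were named after their values were seen.

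The markers of other cells of the tissue gave the following values in HFD versus LFD mice. Of 11 macrophage genes tested, 4 (*Cd68*, *C1qa*, *C1qc*, and *Lyz2*) were lower and none higher past the threshold by edgeR, with a median log2 fold change of -0.48, and the summed CPM of the list was 752 to 1115 in LFD and 527 to 637 in HFD mice, without overlap. Of 12 adipocyte genes, *Lipe* and *Plin4*, which are also expressed in other cells that store lipid, rose. These 6 genes are named because they passed, after their values were seen, among 1.45% of all genes. No gene at all was called in 6 of the 8 fits without 1 mouse, with the mean of the chromaffin genes as a covariate, or without LFD replicates 2 and 6. None of the 12 genes of pericytes and smooth muscle, which surround the endothelium, passed, and their median was -0.21. None of the 10 fibroblast and capsule genes (median -0.25), of 10 erythroid and platelet genes tested (-0.55), of 8 lymphocyte genes (-0.087), of 10 adrenocortical genes (0.50), or of 12 chromaffin genes (-1.28) passed. In icosapent ethyl–treated versus HFD mice, no gene of these lists passed, and the medians were 0.57 for chromaffin, -0.14 for adrenocortical, 0.043 for macrophage, and -0.037 for pericyte and smooth muscle genes. They were -0.20 for adipocyte, 0.11 for fibroblast and capsule, 0.16 for erythroid and platelet, and 0.057 for lymphocyte genes.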

How the data were processed

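RNA-seq of the adrenal cortex was available for 12 mice, 1 library each (4 LFD, 4 HFD, and 4 HFD with icosapent ethyl). According to the study's methods and the submitters' processing notes, the authors trimmed reads with cutadapt, aligned them to GRCm38 with STAR, and counted them per gene by strand with HTSeq 0.6.1p1. The deposited values are raw counts per gene. Symbols and coordinates came from GENCODE M21, which matched 49326 of 49585 genes, whereas the authors used GENCODE M12.

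Each comparison used the mice of its 2 groups. After the default filter of edgeR's filterByExpr (minimum count 10) and TMM scaling, the quasi-likelihood F test of edgeR 4.0.16 (R 4.3.3) was run on all genes, with Benjamini-Hochberg adjustment and a threshold of 0.05. Confidence intervals are at 95%. CPM were TMM-scaled, and correlations used log2 CPM with a prior count of 2. The fit was tested on simulated data. No pair of libraries agreed within sampling noise (lowest chi-square per degree of freedom 24.5 over 66 pairs). The genes and lists were chosen with earlier results of these data known. All 10 endothelial genes, the 8 genes of most similar pattern, *Vegfa*, *Angpt1*, *Angpt2*, and any list gene past the threshold were to be named.

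HFD and icosapent ethyl–treated mice carry the numbers 1 to 4 in the labels, which do not say what a number marks. Deviations from the group means over all genes correlated by 0.254, 0.122, 0.354, and 0.655 between mice with the same number, all above 0.1. With that cut, the numbers were taken as pairs in an alternative with the number as a replicate block. Mice with different numbers reached 0.621 and 0.474, so that these values do not show that same-numbered mice are pairs. The other alternatives were DESeq2 1.42.0, its size factors, unscaled library totals, other filters on low counts, all 12 mice in 1 fit, a chromaffin or adipocyte covariate (the mean standardized log2 CPM of the list), and each mouse left out. Leaving out LFD replicates 2 and 6 together was added after seeing the data. So was the adjustment of the correlations with *Pecam1* over all genes.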

Additional observations from a re-analysis of the deposited data

How the results depend on the processing

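No endothelial gene passed the threshold under any alternative in icosapent ethyl–treated versus HFD or LFD mice. In HFD versus LFD mice 1 did, *Kdr*, with the adipocyte covariate. Of the 170 values of single genes under alternatives in each comparison, 40 changed sign in HFD versus LFD, 3 in icosapent ethyl–treated versus HFD, and 7 in icosapent ethyl–treated versus LFD mice, and the cause was not tested. The count of genes called over all genes in HFD versus LFD mice, 230, was 2049 with DESeq2, 84 with unscaled totals, 556 with all 12 mice in 1 fit, 0 with the chromaffin covariate, 2054 with the adipocyte covariate, and 0 without LFD replicates 2 and 6. The counts of 0 in the other comparisons became 6 (versus HFD) and 477 (versus LFD) with DESeq2, and 2 (versus LFD) with all 12 mice. With HFD mice as the reference and the label number as a replicate block, 0 genes were called, the median of the 10 genes was -0.20, and 696 instead of 221 genes had an unadjusted p below 0.05, 3 of them endothelial (*Kdr*, *Flt1*, and *Tie1*) instead of 2 (*Tie1* and *Eng*). The block changed no call.

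In HFD versus LFD mice, the median of the 10 genes was -0.19 with the chromaffin and 0.18 with the adipocyte covariate. The log2 fold change of *Plvap* turned to 0.0037 with DESeq2 or its size factors and 0.0030 with all 12 mice, and that of *Eng* to -0.0035 with at least 10 counts in every mouse. Unscaled totals, which moved the median of all genes to -0.11, gave -0.057 for *Cdh5*, -0.033 for *Flt1*, and -0.098 for *Eng*. The chromaffin covariate gave -0.16 for *Cdh5*, -0.072 for *Kdr*, -0.19 for *Flt1*, 0.15 for *Vwf*, and -0.17 for *Eng*. The adipocyte covariate gave 0.17 for *Pecam1*, 0.18 for *Tek*, 0.19 for *Tie1*, 0.15 for *Plvap*, and 0.13 for *Emcn*. Without LFD replicates 2 and 6, *Cdh5* was at -0.15, *Kdr* at -0.017, *Flt1* at -0.22, and *Eng* at -0.13. The chromaffin covariate turned *Vwf* to -0.13 against HFD and 0.069 against LFD in icosapent ethyl–treated mice. Against LFD, the adipocyte covariate gave 0.015 for *Pecam1*, 0.14 for *Kdr*, 0.010 for *Flt1*, and 0.055 for *Emcn*.

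With 1 mouse left out, 0 to 918 genes were called in HFD versus LFD mice (918 when HFD replicate 1 was the mouse left out, 78 when it was LFD replicate 2, and otherwise 0), 0 in icosapent ethyl–treated versus HFD, and 0 to 1 versus LFD mice. The ranges in HFD versus LFD were -0.077 to 0.088 for *Pecam1*, -0.062 to 0.12 for *Cdh5*, -0.028 to 0.21 for *Flt1*, -0.20 to 0.072 for *Tek*, -0.13 to 0.083 for *Tie1*, -0.094 to 0.081 for *Plvap*, -0.10 to 0.078 for *Emcn*, -0.066 to 0.077 for *Eng*, 0.15 to 0.39 for *Kdr*, and -0.89 to -0.34 for *Vwf*. In icosapent ethyl–treated versus HFD mice they were -0.16 to 0.0060 for *Emcn* and -0.0013 to 0.60 for *Vwf*. Against LFD mice they were -0.24 to 0.026 for *Kdr* and -0.16 to 0.028 for *Emcn*.

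The number of mice, 4 per group, sets the width of the intervals given, and the smallest difference this number allows to be called was not measured. The covariates are means of genes measured in the same libraries, they differ between the groups they adjust, and their part in the levels cannot be told apart from that of the diets.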

Other observations

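Some genes of the endothelial lists had an unadjusted p below 0.05 in edgeR although none passed the threshold, and a selection of them is named here after their values were seen. In HFD versus LFD mice, *Pdpn*, which encodes podoplanin of lymphatic endothelium and other cells, had a mean of 9.97 ± 1.32 CPM in LFD mice and of 4.55 ± 1.43 CPM in HFD mice (SD, n = 4 each), with an edgeR adjusted p of 0.0553. *Apln*, which encodes the peptide apelin, had means of 115 ± 50.7 and 48.8 ± 15.5 CPM (edgeR adjusted p 0.0736). *Acvrl1*, which encodes the receptor ALK1 with which endoglin acts, was at 36.8 ± 5.94 and 26.5 ± 1.83 CPM, and *Fli1*, an ETS factor gene, was at 13.9 ± 1.41 and 9.75 ± 1.12 CPM. *Sele*, which encodes E-selectin of activated endothelium, had means of 1.72 ± 0.737 and 4.26 ± 0.619 CPM. The LFD and HFD mice did not overlap for *Pdpn*, *Acvrl1*, *Fli1*, and *Sele*, and overlapped for *Apln*. In the whole lists, in the order given above, they did not overlap for 1 of 18, 1 of 11, and 1 of 16 genes. In the list of other endothelial genes, 1 higher and 3 lower of 30 did not overlap. The share over all genes was 13.5%. At an unadjusted p below 0.05 the lists had 2 of 18, 3 of 11, 1 of 16, and 6 of 30, against 24.8% of all genes. The named genes do not stand for the direction of their lists. In the same order, 8 of 18, 7 of 11, 3 of 16, and 9 of 30 genes were higher in HFD mice.

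In icosapent ethyl–treated versus HFD mice, *Dll4*, the ligand of Notch receptors in sprouting vessels, was at 16.2 ± 0.797 CPM compared with 21.7 ± 3.78 CPM (SD, n = 4 each). *Nrp1*, the gene of a VEGF coreceptor, was at 76.1 ± 9.16 compared with 97.9 ± 10.2 CPM. *Podxl*, a surface sialomucin gene, was at 162 ± 10.7 compared with 188 ± 11.3 CPM. The groups did not overlap for *Dll4* and *Podxl*, and overlapped for *Nrp1*. In the whole lists, in the order given above, they did not overlap for 1 of 18, 0 of 11, 0 of 16, and 2 of 31 genes, against 1.14% of all genes. All 3 had an edgeR adjusted p of 0.9997. They were picked among genes that fell, whereas the lists as a whole had no shared direction. In the same order of lists, 10 of 18, 2 of 11, 11 of 16, and 15 of 31 genes were higher in icosapent ethyl–treated mice.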
